A study of Rattus norvegicus with 28 samples.

Results

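The kidneys of female SBH/y rats were compared after a sham operation or uninephrectomy, in which a surgeon takes out 1 of the kidneys. The comparison used 14 of the series' 28 microarrays. Its members were the 7 arrays labelled SBH/y after right uninephrectomy and the 7 labelled SBH/y with 2 kidneys, chosen by their titles, and all 31042 probe sets other than array controls. The rats of both groups were 5 months old and had been operated on 4 months earlier, ate standard chow freely and shared all else that the labels give except the operation. The other 14 arrays held the same states in SBN/y rats, 7 arrays each, and served here as a reference. Sample numbers run from 1 to 7 within each group, but nothing states that they stand for different animals. The p-values therefore reflect only sample-to-sample spread, part or all of which may be technical. The labels give no part of the kidney, no time of day at which the rats were killed, and no urine protein.

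The Sabra rat was bred into SBH/y, in which a high-salt diet raises blood pressure, and SBN/y, in which it does not. SBH/y rats are also known to lose protein in the urine. When a kidney is removed, the remaining kidney grows and each of its nephrons filters more blood plasma. In a nephron, podocytes cover the filter, proximal tubule cells take filtered protein and solutes back up, and later segments adjust salt and water. Injured tubule cells are known to lose transporters and to express genes such as Havcr1 and Spp1, while macrophages, lymphocytes and matrix-forming fibroblasts are known to collect around them. Many kidney genes also follow the circadian clock, in which Bmal1 with Clock or Npas2 drives the Per, Nr1d and Dbp genes, whose levels peak when those of Bmal1 and Npas2 are low.

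Values are the deposited log2 values, for which an increase of 1 is a doubling. Differences are uninephrectomized minus sham, with the standard error of limma, a linear model with moderated variances fitted to all 28 arrays. A probe set or gene was called when its p-value, adjusted over all probe sets by the Benjamini-Hochberg method, was under 0.05. The arrays' medians lay between 5.72 and 5.77, and any 2 SBH/y arrays correlated over all probe sets at 0.9899 to 0.9974. Kidney markers were at the top of the scale on all 14 arrays, with Umod of the thick ascending limb at 13.18 or more, the phosphate transporter Slc34a1 at 12.87 or more and the endocytic receptor Lrp2 at 12.41 or more. Signal over background was not measured. Of the 170 genes named, 21 had means below the lowest array median in both SBH/y groups, and their differences give no exact fold of RNA. These were Adamts4, Agt, Apln, Areg, Atf3, Ccl28, Cd3g, Cdk1, Col8a1, Elf5, Fcgr2b, Fgg, Lcn2, Mki67, Mrc1, Olr1, Pou2af1, Ptgs2, S100a9, Sult1c3 and Ube2c. A further 18 were below it in 1 of the groups, and their differences are no exact folds either: Adamts8, Bmal1, Cd3e, Cps1, Des, Fgb, Havcr1, Hmox1, Klk1c4, LOC102550354, Mlana, Mmp12, Mmp9, Mthfd2, Npas2, Per3, Rnf125 and Ucp1.

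Clock genes separated 6 of the 7 uninephrectomized arrays from all sham arrays, while array 2 of the uninephrectomized group was like the sham group. A clock score was computed for each array as the mean of the centred log2 values of Bmal1, Npas2 and Clock and, with the sign turned, of the opposite-phase genes. Of the 12 genes listed for it, 11 were measured. The sham arrays had scores of 0.438 to 0.68 (mean 0.555). Uninephrectomized array 2 had 0.661, inside that range, and the other 6 uninephrectomized arrays had -1.205 to -0.787. In SBN/y, array 6 of the uninephrectomized group had -0.885, and the other 6 had 0.168 to 0.588.

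**Figure D1:**
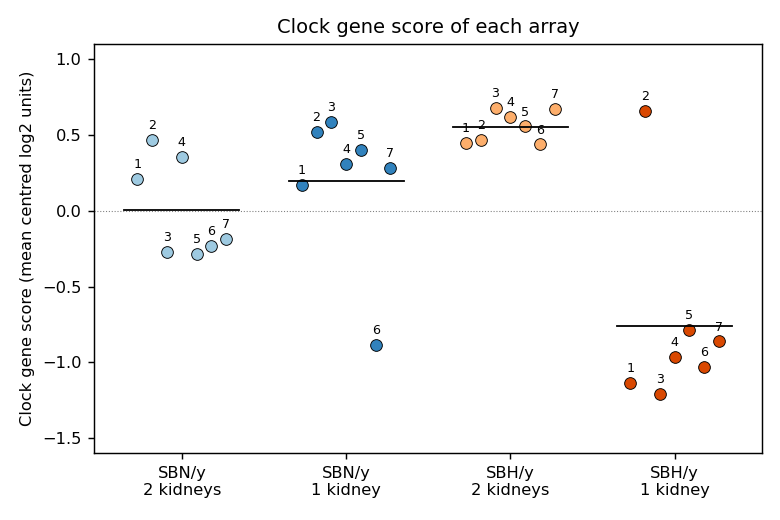
Clock gene score of every array, in centred log2 units, for the 4 groups of 7 arrays. Points are arrays with their replicate number and horizontal lines are group means. The SBH/y arrays with 1 kidney lie between -1.205 and -0.787 except array 2 at 0.661, and the SBH/y sham arrays lie between 0.438 and 0.68.

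Of 20 measured clock and clock-driven genes, 11 were called higher and 5 lower after uninephrectomy. Over all named genes 4.85% were called higher and 5.51% lower. Without uninephrectomized array 2 the list's calls were 12 and 5, and with the score as a covariate 0 and 1. Bmal1, Npas2, Dbp, Per2, Per3, Nr1d1, Nr1d2, Tef and Hlf are themselves part of the score. Smaller differences for them in that fit were therefore built in. Npas2, a partner of Bmal1, had sham values of 7.72 to 8.11 (median 7.95) and uninephrectomized values of 4.38 to 7.74 (median 4.99), a difference of -2.70 ± 0.34 (adjusted p 4.56e-06). Bmal1 itself had 7.06 to 7.59 (median 7.34) against 4.41 to 7.52 (median 4.80), a difference of -2.16 ± 0.33. In both genes array 2 gave the highest value of its group, at 7.74 and 7.52, beside the sham arrays. Dbp, a transcription factor of the opposite phase, had 6.06 to 6.78 (median 6.42) against 6.58 to 9.23 (median 8.87), a difference of 2.05 ± 0.36, and its lowest uninephrectomized value was again array 2. Per3 differed by 1.47 ± 0.29, the deubiquitinase Usp2 by 1.37 ± 0.24, the repressor Bhlhe41 by 1.31 ± 0.24, the nuclear receptor Nr1d2 by 1.30 ± 0.25, Per2 by 1.29 ± 0.21, Tef by 1.04 ± 0.18 and Hlf by 0.85 ± 0.20. Another Per2 probe set, with a sham mean of 7.41, was not called, at 0.10. Nfil3, a repressor of Dbp targets, differed by -0.79 ± 0.22 with overlap. Ddit4l, a growth inhibitor of the mTOR pathway that was listed here with its earlier result known, differed by -2.66 ± 0.39. Nr1d1 was not called, with a difference of 0.88 ± 0.31 (adjusted p 0.0802) and sham values as far apart as 4.83 to 6.52 (median 6.05).

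The letters CACGTG, the E-box that Bmal1 and its partners are known to bind, were searched for on both strands in the 250 bases before each gene's start (RefSeq, build GRCr8). They stood in 5.59% of 33469 windows, and in 4 of the 18 clock list genes with a window. Of these 4, Tef, Bhlhe40 and Bhlhe41 were called higher, out of 15 called list genes with a window. Their stretches are shown because these genes were called higher, with the E-box in capitals. A match describes these letters and shows no binding. The other match, in Nr1d1, belonged to a gene that was not called. The list was put together from known clock genes, for which this element is described, so its share is no independent result.
Tef, chr7:115206599-115206688, plus strand: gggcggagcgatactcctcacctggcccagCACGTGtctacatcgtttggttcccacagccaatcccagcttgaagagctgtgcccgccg
Bhlhe40, chr4:143174200-143174289, plus strand: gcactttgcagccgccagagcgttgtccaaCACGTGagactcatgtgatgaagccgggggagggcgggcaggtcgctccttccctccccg
Bhlhe41, chr4:180569356-180569445, minus strand: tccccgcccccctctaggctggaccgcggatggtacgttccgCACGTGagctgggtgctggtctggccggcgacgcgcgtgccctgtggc
Of the 3, Bhlhe40 had the smallest difference, 0.37 ± 0.11 (adjusted p 0.0374), and its call was lost without any of sham arrays 2, 3, 6 and 7 or uninephrectomized arrays 1 to 5, with adjusted p of 0.0501 to 0.0922. Array 2 had 6.97 for Tef, inside the sham range of 6.88 to 7.27 (median 7.13), while the other 6 arrays lay from 8.03 to 8.81. For Bhlhe41 it had 6.93, inside the sham range of 6.09 to 7.12 (median 6.37), with the other 6 at 7.49 to 8.27. Bhlhe40 did not share this position of array 2. Its value there was 8.07, above the highest sham value of 8.04 and inside the 7.90 to 8.24 of the other 6.

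The position of array 2 held well beyond the clock list. Of 1474 called genes (10.4% of 14217), 773 (52.4%) had a value in array 2 inside the range of the 7 sham arrays, against 11.1% to 19.2% in the other 6 uninephrectomized arrays. The median shift of the called genes in their called direction was 0.132 in array 2 and 0.256 to 0.335 in the others. The genes were called on these same arrays, so these shares are a description. For the lists below, counts of higher and lower calls with the clock score as a covariate are therefore given too, and counts without array 2 where they differ. The score separated the groups except for array 2, so the second fit was less precise: its median standard error was 0.097 against 0.067. For genes that follow the score, clock phase and operation cannot be told apart within the other 6 arrays.

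**Figure D2:**
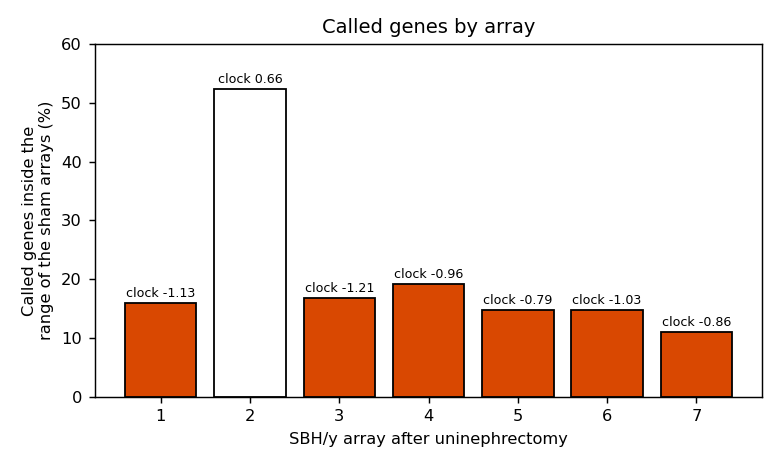
Share of the 1474 called genes whose value lay inside the range of the 7 sham arrays, in %, for each of the 7 uninephrectomized SBH/y arrays, with the clock score printed above each bar. Array 2, the open bar, has 52.4% and the other arrays have 11.1% to 19.2%.

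After uninephrectomy 1033 of 31042 probe sets were called higher in SBH/y kidneys and 1525 lower, 3.33% and 4.91%, or 8.24% together. Of 14217 named genes, 690 were higher (4.85%) and 784 lower (5.51%), and these shares are the background for each list below. With quantile normalization of the deposited values the genes split into 903 higher and 761 lower. Most differences were small: 15 genes rose and 11 fell by 1 log2 unit or more, 0.106% and 0.0774%. The groups did not overlap in 187 higher (1.32%) and 194 lower genes (1.36%). With the clock score in the fit, 28 genes were called higher and 18 lower (0.197% and 0.127%, or 0.324% together), and 43 of them were among the 1474. Of the 1474, 1430 kept their sign, 659 kept at least 75% of their difference and 424 lost 50% or more of it. Without array 2, 852 genes were called higher and 948 lower.

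Havcr1, the kidney injury molecule of proximal tubule cells, rose more than any other named gene. Its sham values were 4.36 to 5.07 (median 4.78) and its uninephrectomized values 6.64 to 8.81 (median 7.19). All 7 uninephrectomized arrays lay above all sham arrays, array 2 included at 7.12. The difference was 2.79 ± 0.23 (adjusted p 4.37e-09), from a sham mean below the array medians, and 2.74 with the clock score (adjusted p 0.00023). Osteopontin, Spp1, a secreted phosphoprotein of injured tubules, had 11.52 to 11.67 (median 11.60) against 12.16 to 12.89 (median 12.40). Its difference was 0.86 ± 0.10, and 0.88 with the clock score. Gpnmb, a membrane glycoprotein found in lysosomes of macrophages and stressed epithelia, had 6.14 to 6.28 (median 6.19) against 6.69 to 7.74 (median 7.32), a difference of 1.15 ± 0.11 and of 0.86 with the score. Clusterin, Clu, a secreted chaperone, had 9.62 to 9.77 (median 9.68) against 10.01 to 10.47 (median 10.19), a difference of 0.51 ± 0.07 and of 0.53 with the score. In none of these 4 genes did the groups overlap.

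Across the list of tubular injury and dedifferentiation, 15 of 39 measured genes rose and 2 fell, 38.5% and 5.13%. The list's median difference was 0.159, against 0.012 over all genes. Without array 2 the calls were 19 and 2, and with the clock score 5 and 0. Timp1, the inhibitor of matrix proteases, rose by 0.53 ± 0.08, the intermediate filament gene Vim by 0.49 ± 0.06, the hyaluronan receptor Cd44 by 0.50 ± 0.08 and the TWEAK receptor Tnfrsf12a by 0.55 ± 0.10. Tnfrsf12a stayed called with the clock score at 0.74. Vim, Cd44 and Timp1 did not, with adjusted p of 0.203, 0.397 and 0.0974. The fibrinogen chains went apart on the probe sets used, with Fgb at 0.48 ± 0.12 and Fgg at -0.59 ± 0.14, both called. Other Fgb probe sets, with sham means of 3.4 and 2.85, were not called, at 0.08 and 0.09. The tight junction gene Cldn1 fell by 0.48 ± 0.09. Lcn2, the urinary injury marker NGAL, had 3.58 to 4.18 (median 3.61) against 3.66 to 4.24 (median 3.82), so the groups overlapped almost fully, and was not called (difference 0.10 ± 0.09). Its values lay far below the array medians.

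**Figure D3:**
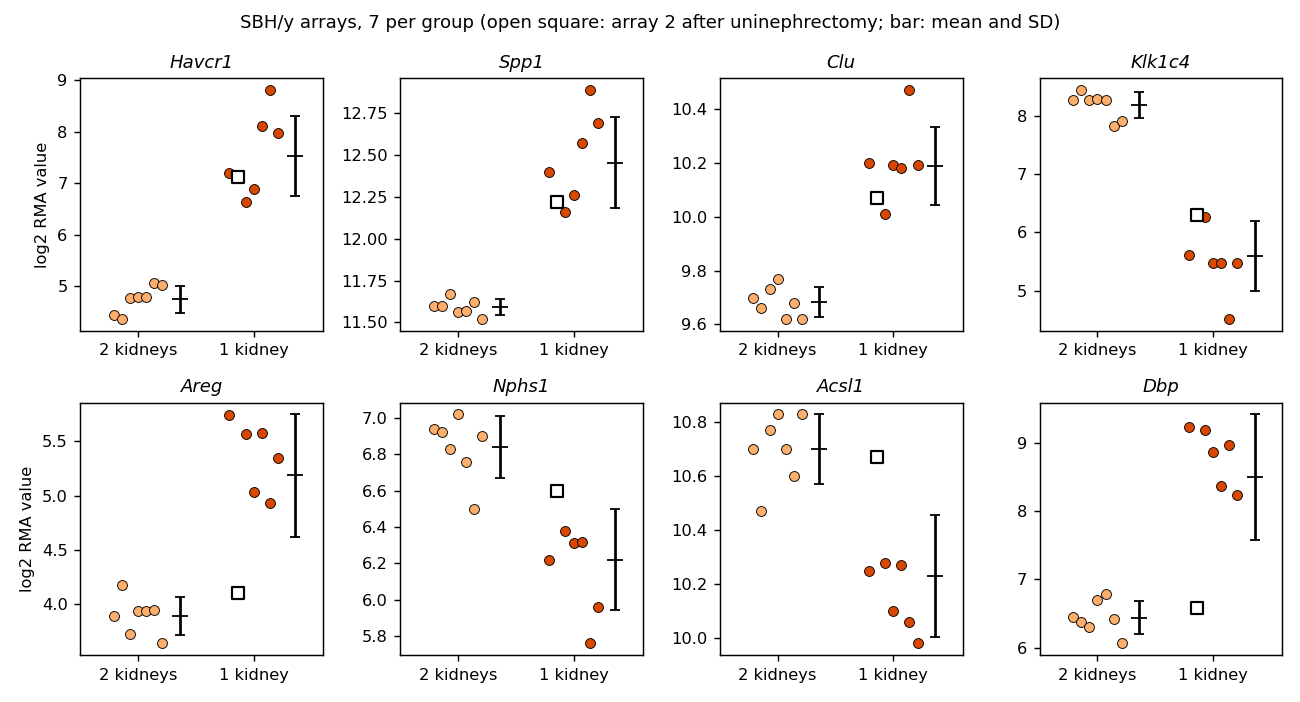
Log2 values of 8 genes in the 7 sham arrays (2 kidneys) and the 7 uninephrectomized arrays (1 kidney) of SBH/y. Points are arrays, the open square is uninephrectomized array 2, and the bars give the mean and SD of 7 arrays. Havcr1, Spp1, Clu and Klk1c4 do not overlap between the groups, while array 2 lies inside the sham range for Areg, Nphs1, Acsl1 and Dbp.

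The largest fall apart from clock-phase genes was that of Klk1c4, a member of the kallikrein family of secreted serine proteases. Sham values were 7.82 to 8.44 (median 8.27) and uninephrectomized values 4.51 to 6.30 (median 5.48), with no overlap. The difference was -2.59 ± 0.21 (adjusted p 2.68e-09), and -2.26 with the clock score. In SBN/y it was -1.71, called as well. The rat kallikrein genes are near-identical copies, so the probes may read more than 1 of them. Tissue kallikrein, Klk1, the kinin-forming enzyme of the connecting tubule, fell by 0.31 ± 0.06 from 10.41 to 10.67 (median 10.52) to 9.99 to 10.40 (median 10.20).

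Other large rises that held with the clock score were those of Cps1, Jchain and Gsta3l1. Cps1, the mitochondrial enzyme that starts the urea cycle, had 4.85 to 6.34 (median 5.53) against 6.75 to 7.78 (median 7.38), a difference of 1.55 ± 0.21. Jchain, the joining chain of secreted immunoglobulins, had 6.40 to 7.22 (median 6.85) against 7.60 to 8.76 (median 7.89), a difference of 1.19 ± 0.13. For Gsta3l1, a glutathione transferase, the difference was 1.07 ± 0.18. Among the 15 largest rises, Areg, an EGF receptor ligand, and Ubd and PCOLCE2 followed array 2 in part. Areg differed by 1.29 ± 0.15, and array 2 at 4.10 lay inside the sham range of 3.64 to 4.18 (median 3.94), below the other 6 arrays at 4.93 to 5.74. With the score its difference was 0.63 and not called. Ubd, a ubiquitin-like modifier induced by cytokines, differed by 1.06 ± 0.12 (0.65 with the score), and PCOLCE2, an enhancer of procollagen processing, by 1.13 ± 0.21 (0.75 with the score).

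Most of the 15 largest falls belonged to genes for which array 2 lay in or near the sham range. The lactate transporter Slc16a1 had 9.17 to 9.81 (median 9.67) against 7.24 to 9.73 (median 7.66), a difference of -1.68 ± 0.27, with array 2 at 9.73. Angptl4, an inhibitor of lipoprotein lipase, differed by -1.18 ± 0.23 and the ubiquitin ligase Rnf125 by -1.13 ± 0.22. Osteoprotegerin, Tnfrsf11b, differed by -1.12 ± 0.19, Mlana by -1.04 ± 0.15 and Pdk4, a brake on pyruvate oxidation, by -0.96 ± 0.21. Wsb1, a subunit of ubiquitin ligases, went from 9.52 to 9.90 (median 9.68) to 8.40 to 9.53 (median 8.54). The uncharacterized genes LOC100912188, LOC102550354 and C2h3orf80 fell by 1.14 ± 0.18, 0.99 ± 0.18 and 0.97 ± 0.15. Among these 10, none was called with the clock score, where their differences lay from -0.62 for Mlana to 0.13 for Rnf125. S100a9, a calcium-binding protein of neutrophils, fell by 1.11 ± 0.27 from 3.65 to 5.84 (median 4.96) to 3.33 to 4.15 (median 3.76), with both group means below the array medians.

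Falls and rises that kept their call with the clock score also included 6 genes picked here after their values were seen. Hrg, a histidine-rich plasma glycoprotein, fell by 0.94 ± 0.09 from 9.01 to 9.36 (median 9.14) to 7.91 to 8.43 (median 8.25). Slc51a, a subunit of the basolateral bile acid and steroid transporter, fell by 0.87 ± 0.09, and Asb9, a ubiquitin ligase adaptor, by 0.80 ± 0.07. The phosphate transporter Slc34a2 rose by 0.70 ± 0.10 from 7.27 to 7.57 (median 7.38) to 7.82 to 8.36 (median 8.11). The metalloprotease Adamts8 rose by 0.58 ± 0.06 and the oxidised lipoprotein receptor Olr1 by 0.46 ± 0.06, the latter from values far below the array medians. In all 6 the groups did not overlap.

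**Figure D4:**
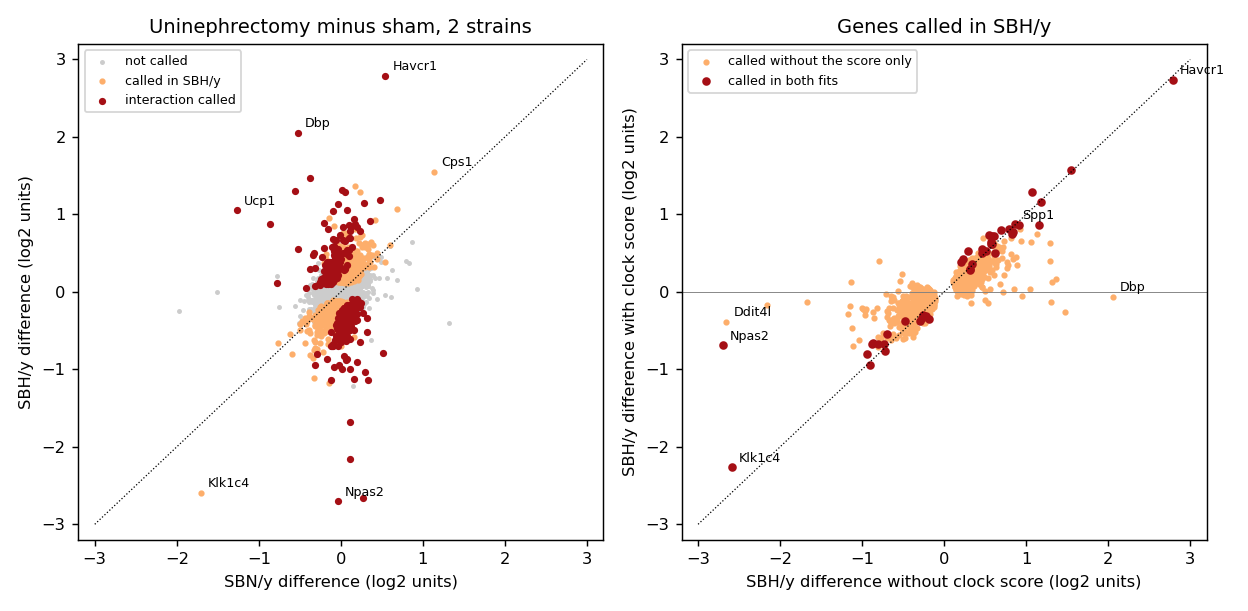
Left, differences between uninephrectomized and sham arrays in SBH/y against those in SBN/y, in log2 units, 1 point per gene, with genes called in SBH/y or for the difference between strains in colour and equality dotted. Right, the SBH/y differences of the 1474 called genes without and with the clock score in the fit. At right Havcr1 lies at the dotted line and Klk1c4 moves to -2.26, while Dbp, Ddit4l and Npas2 move to -0.06, -0.39 and -0.69 with the score. Dbp and Npas2 are themselves part of the score.

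Chaperones of the endoplasmic reticulum, which fold secreted proteins, rose in 9 of 27 cases and fell in 0, 33.3% and 0%. Manf, a secreted factor released under folding stress, had 9.28 to 9.63 (median 9.45) against 9.94 to 10.27 (median 10.08), a difference of 0.62 ± 0.06 (adjusted p 1.65e-07) without overlap. Herpud1, a part of the degradation machinery, had 8.82 to 9.38 (median 8.97) against 9.52 to 10.10 (median 9.96), a difference of 0.88 ± 0.10, also without overlap. Sdf2l1, a partner of the chaperone BiP, rose by 0.57 ± 0.08, Creld2 by 0.44 ± 0.07, BiP itself, Hspa5, by 0.36 ± 0.06, the transcription factor Xbp1 by 0.24 ± 0.04 and the co-chaperone Dnajc3 by 0.23 ± 0.05. Manf and Sdf2l1 were called with the clock score as well, at 0.50 and 0.61. The list's median was 0.135, and 0.186 with the score. In SBN/y the median was 0.104 and 2 members were called higher. Without array 2 the list's SBH/y calls were 11 and 0.

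The endoplasmic reticulum stress element, CCAAT and CCACG with 9 bases between them, is known to bind the folding stress factors Atf6 and Xbp1. On either strand it stood in 0.0657% of the 33469 windows, 22 in all, and in 7 of the 21 chaperone list genes that had a window. Of 8 called list genes with a window 4 held it. Their stretches are shown because all 4 genes were called higher, with the element in capitals (the Creld2 stretch holds it on the opposite strand).
Hspa5, chr3:38452926-38453015, plus strand: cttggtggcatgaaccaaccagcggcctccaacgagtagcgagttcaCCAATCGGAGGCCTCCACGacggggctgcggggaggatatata
Dnajc3, chr15:102432504-102432593, plus strand: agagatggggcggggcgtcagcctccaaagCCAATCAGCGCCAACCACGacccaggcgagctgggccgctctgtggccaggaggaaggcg
Creld2, chr7:121789209-121789298, plus strand: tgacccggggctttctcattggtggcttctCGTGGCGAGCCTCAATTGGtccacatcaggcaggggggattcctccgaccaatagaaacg
Xbp1, chr14:84604528-84604617, plus strand: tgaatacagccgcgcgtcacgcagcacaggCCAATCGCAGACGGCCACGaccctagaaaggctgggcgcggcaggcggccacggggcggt
The other 3 matches, in Hsp90b1, Calr and Canx, belonged to genes that were not called. The list was put together from known folding genes, for which this element is described, so its share is no independent result.

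Of 33 genes of the integrated stress response and serine synthesis, 11 rose and 3 fell, 33.3% and 9.09%. The mitochondrial folate enzyme Mthfd2 rose by 0.70 ± 0.09 from 4.97 to 5.32 (median 5.13) to 5.37 to 6.16 (median 5.91). Chac1, which degrades glutathione, rose by 0.76 ± 0.14, the serine carrier Slc1a4 by 0.50 ± 0.07, asparagine synthetase, Asns, by 0.43 ± 0.08, the transcription factor Atf3 by 0.46 ± 0.07 and Ddit4 by 0.49 ± 0.07. Psph of serine synthesis fell by 0.49 ± 0.13 and the hormone gene Stc2 by 0.81 ± 0.13. Without array 2 the calls were 12 and 4. Atf3 alone of the list was called with the clock score, at 0.50. Of 21 heat shock genes 7 rose and 0 fell, and in SBN/y 6 rose. The list's median was 0.094 in SBH/y and 0.167 in SBN/y. In SBH/y the calls were 6 and 0 without array 2 and 1 and 0 with the score. The inducible Hsp70 gene Hspa1a had 8.15 to 8.37 (median 8.25) against 8.98 to 9.48 (median 9.11) with no overlap. Its difference was 0.91 ± 0.06 (adjusted p 3.15e-10) and 0.86 with the clock score, and in SBN/y 0.36. The co-chaperones Dnajb1, Chordc1 and Dnaja1 rose by 0.39 ± 0.06, 0.44 ± 0.08 and 0.37 ± 0.06. Of 29 immediate early genes 3 rose and 1 fell, with Klf6 at 0.38 ± 0.07. The calls were 4 and 1 without array 2 and 1 and 0 with the score, where the gene called was Atf3 again, a member of both lists. Hspa1a is one of several Hsp70 copies, which its probes may share.

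Some immune cell markers rose, and most members of their lists were not called. In bulk samples such as these, fewer cells of a type and less RNA per cell cannot be told apart, nor can more of either. Of 32 macrophage and monocyte markers 10 rose and 0 fell, 31.2% and 0%, with a median of 0.211 and with 15 and 1 without array 2. The list's mean level was 6.72 to 6.94 in sham arrays and 6.79 to 7.2 after uninephrectomy, lowest in array 2. Beside Gpnmb, the receptor gene Csf1r rose by 0.33 ± 0.06, the lysosomal gene Laptm5 by 0.29 ± 0.06, the Fc receptor Fcgr2b by 0.50 ± 0.10, the mannose receptor Mrc1 by 0.61 ± 0.13 and Cd74 by 0.25 ± 0.05. Cd68 was not called, with 6.65 to 7.19 (median 6.77) against 6.56 to 7.26 (median 6.95). With the clock score in the fit Gpnmb alone stayed called, and the median was 0.091.

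Genes of MHC class II presentation rose in 6 of 11 cases (54.5%) and fell in 0, with a median of 0.244. The peptide loaders RT1-DMa and RT1-DMb rose by 0.50 ± 0.07 and 0.38 ± 0.07. Array 2 lay inside the sham range for RT1-DMa, at 7.15, and for RT1-DMb, at 8.62. Without array 2 there were 8 and 0 calls, and none of the 11 was called with the clock score. T and natural killer cell markers rose in 6 of 23 cases, with the receptor chain Cd3e at 0.54 ± 0.07 and Cd3g at 0.52 ± 0.08. Cd3e had 5.00 to 5.31 (median 5.16) against 5.43 to 5.90 (median 5.76) and did not overlap. With the score 0 of the 23 were called, with adjusted p of 0.0823 for Cd3e and 0.302 for Cd3g. B and plasma cell markers rose in 3 of 13 cases: Jchain, given above, Xbp1, which tubule cells express too, and the B cell factor Pou2af1 at 0.29 ± 0.07. Their calls were 4 and 0 without array 2 and, with the score, Jchain alone. Of MHC class I genes 1 of 15 rose and 0 were called with the score.

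Interferon response genes rose in 6 of 39 cases and fell in 1 (15.4% and 2.56%, 8 and 1 without array 2), with the myeloid factor Irf8 at 0.39 ± 0.07 and the antiviral gene Rsad2 at -0.47 ± 0.11. Of 38 chemokines and cytokines 5 rose and 3 fell (6 and 3 without array 2). The lymphoid chemokines Ccl21 and Ccl19 rose by 0.70 ± 0.11 and 0.67 ± 0.10, and Ccl19 had 6.63 to 7.20 (median 7.02) against 7.45 to 7.88 (median 7.67). The interferon-induced Cxcl10 and Cxcl11 rose by 0.56 ± 0.12 and 0.40 ± 0.08, while the epithelial chemokine Ccl28 fell by 0.34 ± 0.07. Ccl2, the monocyte attractant, was not called, with 6.49 to 7.37 (median 6.87) against 6.46 to 7.24 (median 6.71). Of 19 complement genes 2 rose and 2 fell (4 and 2 without array 2, 5 and 2 with quantile normalization), with the inhibitory factor Cfi at 0.45 ± 0.10. No member of these 3 lists was called with the clock score.

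Collagen and laminin genes rose in 8 of 27 cases and fell in 1, 29.6% and 3.7%, with 10 and 1 without array 2. Col1a1, the main fibrillar collagen, had 7.07 to 7.54 (median 7.31) against 7.53 to 7.93 (median 7.79), a difference of 0.46 ± 0.09 (adjusted p 0.00101). Its lowest uninephrectomized value fell just inside the sham range. Another Col1a1 probe set, with a sham mean of 6.84, was not called, at -0.02 (adjusted p 0.9445). Col3a1 missed the threshold at 0.30 ± 0.10 (adjusted p 0.0551, 0.0173 without array 2). The short-chain collagen Col8a1 rose by 0.53 ± 0.08. Col4a4, a chain of the mature glomerular basement membrane, fell by 0.85 ± 0.13 from 6.87 to 7.29 (median 6.97) to 5.81 to 6.95 (median 6.06), with array 2 at 6.95 and the other 6 arrays at 5.81 to 6.41. None of the 27 was called with the clock score, where the median was 0.003.

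Other matrix and fibroblast genes rose in 6 of 27 cases and fell in 2. Matrix Gla protein, Mgp, an inhibitor of calcification, had 11.65 to 11.90 (median 11.78) against 11.93 to 12.35 (median 12.14) with no overlap, a difference of 0.39 ± 0.06. The collagen cross-linker Lox fell by 0.54 ± 0.10, and fibronectin, Fn1, was not called at 0.09 ± 0.05. Another Lox probe set, with a sham mean of 5.86, was not called, at -0.13. With the score 0 of these 27 were called. Of 23 matrix proteases and inhibitors 4 rose and 5 fell (7 and 5 without array 2). Adamts1 rose by 0.79 ± 0.08 from 7.28 to 7.50 (median 7.38) to 7.94 to 8.43 (median 8.08) without overlap, and by 0.81 with the clock score, the sole call of the list in that fit. The macrophage elastase Mmp12 rose by 0.88 ± 0.15, array 2 at 4.99 being its lowest uninephrectomized value. Adamts4, Adamts5 and Mmp9 fell by 0.62 ± 0.11, 0.55 ± 0.10 and 0.49 ± 0.13. Of 29 TGF-beta and CCN genes 3 rose and 2 fell. Ccn2, the connective tissue growth factor, had 8.90 to 9.55 (median 9.31) against 9.66 to 10.02 (median 9.92), a difference of 0.61 ± 0.07 that was 0.72 with the clock score and 0.59 in SBN/y. No other gene of its list was called with the score. Tgfb1 rose by 0.32 ± 0.07 and the repressor Tgif1 by 0.40 ± 0.07, while Tgfbi, a TGF-beta-induced matrix gene, fell by 0.36 ± 0.08.

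Cell cycle genes rose in 19 of 45 cases and fell in 0, 42.2% and 0%, and 41 of the 45 differences were positive. Many of them were dim: with the dimmest 40% of all probe sets left out, 17 of the list stayed and 7 of these rose. Cdk1, the mitotic kinase, had 4.42 to 4.73 (median 4.57) against 4.68 to 5.36 (median 5.00), a difference of 0.46 ± 0.11. The ubiquitin enzyme Ube2c rose by 0.36 ± 0.09 and thymidine kinase, Tk1, by 0.28 ± 0.06. The proliferation marker Mki67 rose by 0.32 ± 0.09 from 3.19 to 3.62 (median 3.45) to 3.38 to 3.96 (median 3.77), with overlap and far below the array medians. Its adjusted p of 0.0192 became 0.0517 without sham array 7 and 0.0505 without uninephrectomized array 6. Without array 2 there were 21 and 0 calls. With the score 0 of the 45 were called, and the median went from 0.163 to 0.089. Of 20 cell cycle inhibitors and p53 targets 1 rose and 1 fell (1 and 2 without array 2), the latter the growth arrest gene Gadd45a at -0.37 ± 0.07, and 0 were called with the score.

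**Figure D5:**
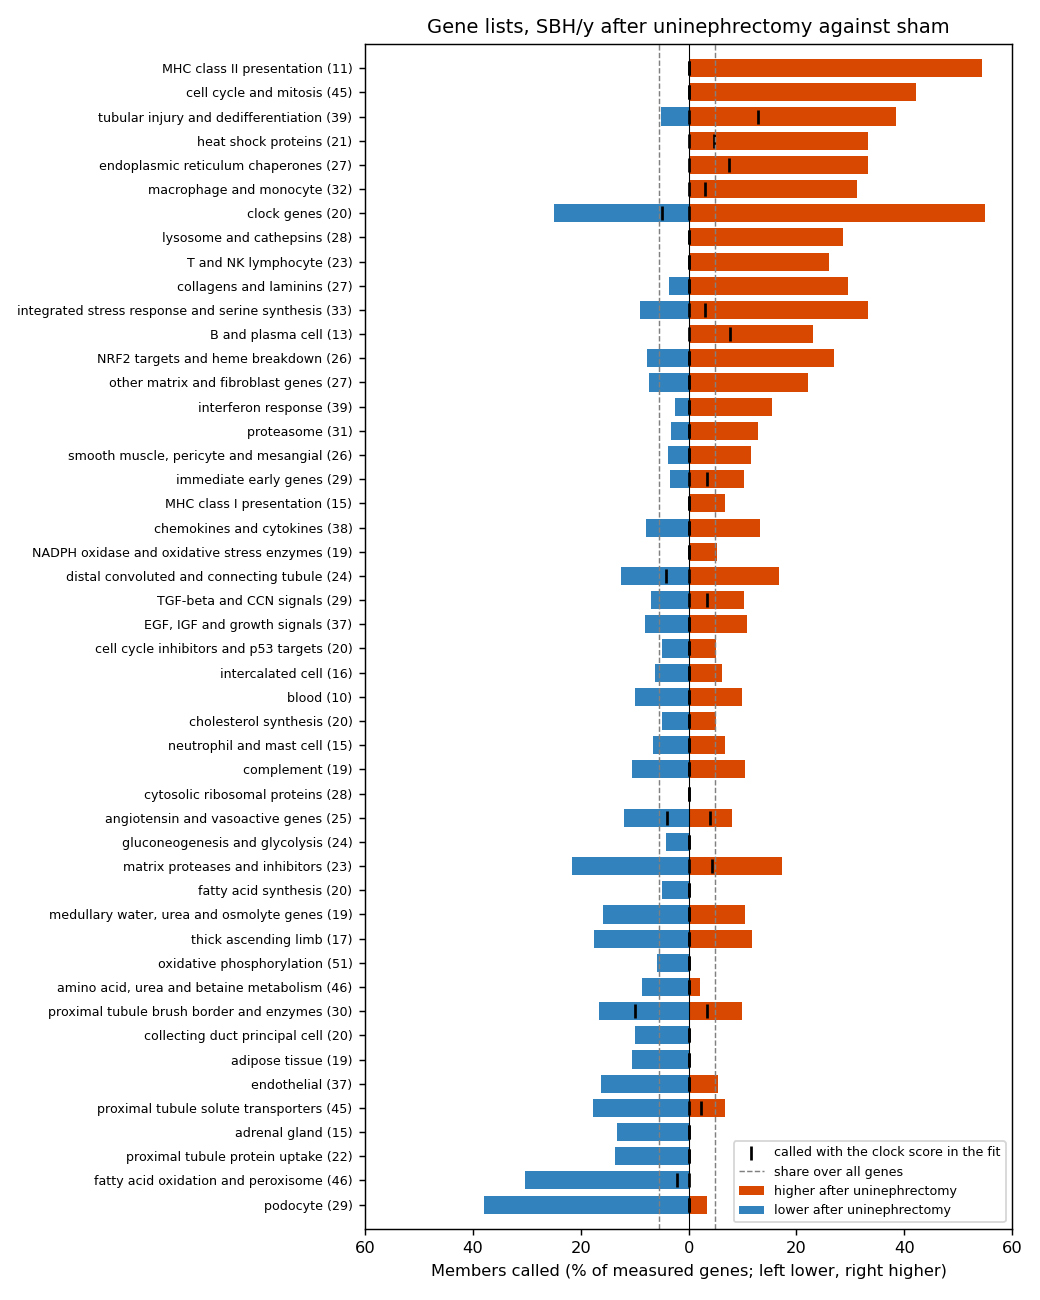
Share of the measured members of 48 gene lists called higher (right) or lower (left) in SBH/y after uninephrectomy, in %, with the number measured in brackets. Dashed lines mark the shares over all genes, 4.85% and 5.51%, and black ticks the shares called with the clock score in the fit. MHC class II and cell cycle genes reach 54.5% and 42.2% on the right, and podocyte and fatty acid oxidation genes 37.9% and 30.4% on the left.

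Podocyte genes fell in 11 of 29 cases and rose in 1, 37.9% and 3.45%, with a median of -0.126. Wt1, the transcription factor of podocytes, had 7.04 to 7.31 (median 7.24) against 6.37 to 6.93 (median 6.72), a difference of -0.55 ± 0.07 (adjusted p 4.9e-06) without overlap. Nephrin, Nphs1, the core of the slit diaphragm, had 6.50 to 7.02 (median 6.90) against 5.76 to 6.60 (median 6.31), a difference of -0.62 ± 0.10, and only array 2 at 6.60 reached the sham range. The phosphatase Ptpro had 8.01 to 8.14 (median 8.10) against 7.38 to 7.77 (median 7.73), a difference of -0.42 ± 0.06, without overlap. The phospholipase Plce1 fell by 0.51 ± 0.09, the actin organiser Synpo by 0.34 ± 0.06 and the surface mucin Podxl by 0.24 ± 0.06. Other probe sets of Synpo, at -0.01 and -0.16, and of Podxl, at -0.23 and -0.25, were not called. In array 2 these genes were lower than the sham mean too, Wt1 by -0.28 and Ptpro by -0.33, against -0.60 and -0.44 over the other 6 arrays. Without array 2 the list had 13 falls and 1 rise, and with quantile normalization 12 and 3. With the clock score 0 members were called, Wt1 stood at -0.30 (adjusted p 0.168) and the median at -0.073.

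Endothelial genes fell in 6 of 37 cases and rose in 2 (10 and 2 without array 2). The VEGF receptor Kdr had 9.07 to 9.33 (median 9.19) against 8.70 to 9.05 (median 8.87) without overlap, a difference of -0.31 ± 0.05, and the phosphatase Ptprb fell by 0.21 ± 0.04. The peptide gene Apln rose by 0.38 ± 0.08. Smooth muscle, pericyte and mesangial genes rose in 3 of 26 cases and fell in 1, with desmin, Des, at 0.29 ± 0.06. No member of either list was called with the score.

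Genes of fatty acid oxidation and peroxisomes fell in 14 of 46 cases and rose in 0, 30.4% and 0%, with 39 of 46 differences negative. Acsl1, which activates long-chain fatty acids, had 10.47 to 10.83 (median 10.70) against 9.98 to 10.67 (median 10.25), a difference of -0.47 ± 0.07. Array 2 at 10.67 was inside the sham range and the other 6 arrays lay at 9.98 to 10.28. The peroxisomal isomerase Eci2 fell by 0.55 ± 0.10, the medium-chain ligase Acsm5 by 0.57 ± 0.09, Ehhadh by 0.41 ± 0.10, Crot by 0.34 ± 0.06 and the gatekeeper of mitochondrial uptake, Cpt1a, by 0.30 ± 0.07. Cyp4b1, a fatty acid hydroxylase, fell by 0.73 ± 0.09 from 10.38 to 10.70 (median 10.65) to 9.61 to 10.03 (median 9.95) and was the member called with the clock score, at -0.67. The list's median was -0.116, and -0.046 with the score, and 17 fell without array 2. Of 51 oxidative phosphorylation genes 3 fell (1 with quantile normalization), the coactivator Ppargc1a by 0.19 ± 0.04 among them, and 0 were called with the score. Of 28 cytosolic ribosomal protein genes 0 were called.

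Proximal tubule solute transporters fell in 8 of 45 cases and rose in 3, 17.8% and 6.67%. The organic cation carrier Slc22a2 had 9.17 to 9.73 (median 9.25) against 9.78 to 10.10 (median 9.95) without overlap and rose by 0.58 ± 0.09, and by 0.72 with the clock score, where it was the sole call of the 45. The organic anion carrier Slc22a6 rose by 0.35 ± 0.05, while Slc22a7 fell by 0.44 ± 0.10. The phosphate transporter Slc34a3 fell by 0.36 ± 0.07, with -0.41 in SBN/y, and Slc34a1 was not called at -0.08 ± 0.05. The receptors that take filtered protein up, Lrp2 (megalin) and Cubn (cubilin), were not called, at 0.00 ± 0.03 and -0.01 ± 0.04. Lrp2 had 12.48 to 12.54 (median 12.49) against 12.41 to 12.55 (median 12.51), the sham range lying inside the other. Of their 22-gene list 3 fell, with the endocytic adaptor Snx9 at -0.30 ± 0.06, and 0 were called with the score.

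Brush border and proximal tubule enzyme genes fell in 5 of 30 cases and rose in 3, and 4 of these 8 were called with the clock score. Without array 2 the calls were 5 lower and 4 higher. Cyp2e1, a xenobiotic hydroxylase, had 11.63 to 11.87 (median 11.83) against 10.75 to 11.27 (median 11.09) without overlap, a difference of -0.72 ± 0.09 and of -0.76 with the score. The sulfotransferase Sult1c3 fell by 0.90 ± 0.12. Among peptidases, neprilysin, Mme, fell by 0.27 ± 0.05, and Enpep, which cleaves angiotensin, rose by 0.31 ± 0.04. Enpep had 10.65 to 10.82 (median 10.75) against 10.98 to 11.18 (median 11.07) and Mme 10.55 to 10.68 (median 10.59) against 10.22 to 10.43 (median 10.34), each without overlap. Another Enpep probe set, with a sham mean of 6.31, was not called, at -0.12. The acetyltransferase Nat8 rose by 0.73 ± 0.12, array 2 at 10.82 staying inside the sham range. Of 46 genes of amino acid, urea and betaine metabolism 4 fell and 1 rose, led by Acmsd of tryptophan breakdown, which fell by 0.77 ± 0.11 from 9.63 to 10.33 (median 10.07) to 9.02 to 9.84 (median 9.26). That list had 5 lower and 2 higher calls without array 2, 7 and 2 without the dimmest 40% of probe sets, and 0 with the score.

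Except for principal cells, the lists of the distal nephron and medulla had members called in both directions. Of 17 thick ascending limb genes 3 fell and 2 rose, but its best known products, Umod and Egf, were not called, at -0.01 ± 0.04 and -0.05 ± 0.04. Of 24 distal convoluted and connecting tubule genes 4 rose and 3 fell. The calcium exchanger Slc8a1 rose by 0.42 ± 0.07 from 8.17 to 8.63 (median 8.50) to 8.79 to 9.12 (median 8.87), and in SBN/y it rose by 0.44. The mineralocorticoid receptor, Nr3c2, fell by 0.23 ± 0.05, and Klotho, Kl, was not called, with 6.59 to 7.27 (median 6.90) against 6.74 to 7.12 (median 6.81). Of 20 principal cell genes 2 fell, the water channel Aqp4 by 0.47 ± 0.09 and the factor Elf5 by 0.34 ± 0.08. Of 16 intercalated cell genes 1 rose, Slc8a1 again as a member of both lists, and 1 fell, and of 19 medullary genes 2 rose and 3 fell. Among these, aldose reductase, Akr1b1, fell by 0.33 ± 0.07 (-0.44 in SBN/y) and the prostaglandin synthase Ptgs2 rose by 0.55 ± 0.15. Without array 2 the higher and lower calls were 3 and 4 in the thick ascending limb, 4 and 4 in the distal convoluted and connecting tubule and 0 and 3 in principal cells, and the other 2 lists had the same counts. With the score Klk1c4, given above, was the sole call in these 5 lists.

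Of 25 angiotensin and vasoactive genes 2 rose and 3 fell, among them the angiotensin receptor Agtr1a, which fell by 0.34 ± 0.05 from 9.25 to 9.49 (median 9.30) to 8.90 to 9.09 (median 8.99) without overlap. Angiotensinogen, Agt, was not called at 0.09 ± 0.12. The list's calls were 2 and 4 without array 2 and 1 and 1 with the score. Of 37 EGF, IGF and growth signal genes 4 rose and 3 fell, with the IGF binding proteins Igfbp4 at 0.46 ± 0.08 and Igfbp3 at -0.57 ± 0.10, while Igf1 was not called at 0.07 ± 0.12. Their calls were 4 and 4 without array 2, and 0 with the score. Antioxidant targets of NRF2 rose in 7 of 26 cases and fell in 2. The glutathione transferase Gstp1 had 11.25 to 11.41 (median 11.30) against 11.63 to 12.10 (median 11.86) without overlap, a rise of 0.55 ± 0.07. Heme oxygenase, Hmox1, rose by 0.62 ± 0.09 and the aldehyde reductase Akr7a3 by 0.38 ± 0.06. Lysosome and cathepsin genes rose in 8 of 28 cases and fell in 0, with the hexosaminidase Hexa at 0.29 ± 0.04, Ctsd at 0.30 ± 0.07 and the cholesterol carrier Npc2 at 0.24 ± 0.04. Of 20 cholesterol synthesis genes 1 rose and 1 fell (4 and 1 with quantile normalization), the latter Dhcr7 by 0.70 ± 0.13, for which array 2 at 8.25 lay inside the sham range. Without array 2 these 3 lists had 7 and 3, 10 and 0 and 2 and 1 higher and lower calls, and none of their members was called with the score.

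Other tissues and cells that a kidney sample can carry along were checked by their markers. Adipose markers fell in 2 of 19 cases, Lpl by 0.34 ± 0.09 and Cd36 by 0.33 ± 0.09, both also expressed by kidney cells. The call of Cd36 was lost without any of sham arrays 1, 3 and 7 or uninephrectomized array 4 (adjusted p 0.0508 to 0.0639). Their mean level was 6.45 to 6.64 in sham arrays and 6.26 to 6.66 after uninephrectomy. Ucp1 of brown fat had 4.71 to 6.76 (median 5.44) against 5.76 to 7.14 (median 6.69) and was not called (difference 1.06 ± 0.38, adjusted p 0.0861). Adrenal markers fell in 2 of 15 cases, with mean levels of 4.69 to 4.87 and 4.72 to 4.86. Of these, Ddc at -0.41 ± 0.09 is a proximal tubule enzyme as well. Another Ddc probe set, with a sham mean of 6.61, was not called, at 0.05. Blood markers rose in 1 of 10 cases, the platelet gene Pf4 at 0.38 ± 0.11, and fell in 1, with mean levels of 6.43 to 6.66 and 6.42 to 6.65. That of Pf4 was lost without sham array 1 or 3 or uninephrectomized array 1, 3, 5 or 7 (adjusted p 0.0526 to 0.0638). Neutrophil and mast cell markers had mean levels of 3.79 to 4.13 and 3.78 to 4.03, below the array medians, with 1 of 15 higher and S100a9 lower. Counts in these 4 lists were the same without array 2 and were 0 with the score. In each of them the ranges overlapped, and their part in the results above was not tested.

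In SBN/y the same operation was followed by 144 called probe sets (0.464%), 69 higher (0.222%) and 75 lower (0.242%). Counted by the 1 probe set that represents each gene, 86 genes were called (0.605%). The fit tested the difference itself, as the interaction of strain and operation, and called 439 probe sets (1.41%) and 293 genes (2.06%). Of the 1474 genes called in SBH/y, 258 (17.5%) were called for the interaction, and in all 258 the interaction had the sign of the SBH/y difference. The interaction is the SBH/y difference minus the SBN/y one, so for genes already called in SBH/y this agreement was nearly fixed in advance. Of the same 1474 genes 957 had the same sign in SBN/y. Probe sets called in both strains in the same direction numbered 61, which is 42.4% of the SBN/y calls and 2.38% of the SBH/y calls, and 4 were called in opposite directions. No arrays are shared between these 2 contrasts. The SBN/y count depended on single arrays: it was 62 without uninephrectomized SBN/y array 7, 79 to 95 without its arrays 2, 3, 4 or 5, and 69 and 72 without SBN/y sham arrays 3 and 5.

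Havcr1 differed between the strains by 2.25 (adjusted p 0.000741), with 0.54 in SBN/y. For Spp1 the interaction was 0.77, for Gpnmb 0.87, for Clu 0.54, for Timp1 0.62 and for Cd44 0.55, and for the podocyte genes Wt1, Nphs1 and Ptpro it was -0.59, -0.55 and -0.36, each called. Sult1c3 fell in SBH/y and differed by 0.19 in SBN/y, an interaction of -1.10. Among the 8 largest positive interactions were Dbp at 2.58, Ucp1 at 2.33, Nr1d2 at 1.86, Per3 at 1.85, Nr1d1 at 1.74, Bhlhe41 at 1.30 and Areg at 1.24, beside Havcr1. Of these, Ucp1 and Nr1d1 were not called in SBH/y. Their interactions were larger than their SBH/y differences, so part of each was a lower mean after uninephrectomy in SBN/y. The 8 largest negative ones were Ddit4l at -2.93, Npas2 at -2.67, Bmal1 at -2.27, Slc16a1 at -1.79, Rnf125 at -1.47, Mlana at -1.33, Nfil3 at -1.30 and Tnfrsf11b at -1.29. Klk1c4, Ccn2, Cps1 and Dnajb1 were not called for the interaction, at -0.89, 0.02, 0.41 and 0.03. With the clock score in the fit limma called 0 interactions, with 1565 probe sets at an unadjusted p under 0.05 (5.04% of all), against 3665 without the score. Without array 2 the interaction calls were 870, and with the score and without array 2 they were 3.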

How the data were processed

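RNA from female rat kidneys was hybridised to 28 Affymetrix rat arrays, 7 in each of 4 groups. The authors deposited 1 table of log2 values made with GCOS and RMA, per the submitters' processing notes; their versions are not given in the sources used here. Since RMA corrects background and sets all arrays to 1 distribution, differences in total RNA cannot be seen. Of 31099 probe sets, 57 controls were left out and 31042 tested. Platform annotation, updated to RefSeq symbols (GRCr8) by gene identifier for 20758 probe sets and by accession for 2, gave 20826 probe sets 1 symbol (66 kept the platform's name), 436 several and 9780 none, hence 14217 genes.

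The group means of all 28 arrays were fitted with limma 3.58.1 (R 4.3.3; lmFit, eBayes), and p-values were adjusted over 31042 probe sets by Benjamini-Hochberg, with a threshold of 0.05. A gene was represented by its probe set of highest mean. The fit was tested on simulated data. The number of arrays limits the precision.

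Groups came from the sample titles. Named genes were the 15 largest rises and 15 largest falls called, up to 6 members of smallest p in each list, the 8 largest interactions each way, a panel of kidney genes and genes that define a role, less some that are not reported here. A further 6 were picked after their values were seen. The members and lists were chosen with earlier results of these data known. Alternatives were fits of the 14 arrays of a strain, a replicate block, quantile normalization, median centring, leaving out the dimmest 40% of probe sets, a trended robust prior, array weights, the clock score as a covariate, the probe set of smallest p for a gene, and each array left out.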

Additional observations from a re-analysis of the deposited data

Results flagged for a closer look

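The limma interaction of strain and operation was called for 73 of the named genes, so that their differences after uninephrectomy were not the same in SBH/y and SBN/y. Values are the SBH/y difference minus the SBN/y difference in log2 units. Positive values were Dbp at 2.58, Ucp1 at 2.33, Havcr1 at 2.25, Nr1d2 at 1.86, Per3 at 1.85, Nr1d1 at 1.74, Bhlhe41 at 1.3, Areg at 1.24 and PCOLCE2 at 1.16. Next came Tef at 1.14, Mmp12 at 1.09, Ptgs2 at 1.07, Ubd at 0.99, Gpnmb at 0.87, Cxcl10 at 0.77, Spp1 at 0.77, Nat8 at 0.74 and Ccl19 at 0.72. These were followed by Jchain at 0.71, Herpud1 at 0.71, Cfi at 0.68, Timp1 at 0.62, Slc34a2 at 0.6, Mthfd2 at 0.59, Adamts1 at 0.55, Hspa1a at 0.55 and Cd44 at 0.55. Smaller were Clu at 0.54, Irf8 at 0.52, Col1a1 at 0.49, Atf3 at 0.48, Slc1a4 at 0.48, Cd3e at 0.45, Asns at 0.45, RT1-DMb at 0.44 and Sdf2l1 at 0.44. The smallest were RT1-DMa at 0.42, Des at 0.36, Olr1 at 0.35 and Enpep at 0.26. Negative values were Ddit4l at -2.93, Npas2 at -2.67, Bmal1 at -2.27, Slc16a1 at -1.79, Rnf125 at -1.47, Mlana at -1.33, Nfil3 at -1.3, Tnfrsf11b at -1.29 and Wsb1 at -1.11. After them came Sult1c3 at -1.1, LOC100912188 at -1.02, LOC102550354 at -1.01, C2h3orf80 at -0.89, Slc51a at -0.7, Ccl28 at -0.66, Hrg at -0.64, Lox at -0.61 and Wt1 at -0.59. Less negative were Igfbp3 at -0.56, Slc22a7 at -0.56, Acsl1 at -0.55, Nphs1 at -0.55, Plce1 at -0.54, Cldn1 at -0.54, Adamts5 at -0.53, Asb9 at -0.52 and Klk1 at -0.49. Closer to 0 lay Crot at -0.45, Nr3c2 at -0.38, Gadd45a at -0.36, Ptpro at -0.36, Ptprb at -0.29 and Mme at -0.25. Ucp1 and Nr1d1 were among these 73 though not called in SBH/y. With the clock score in the fit 0 of these interactions was called, as given above.

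In 43 of 341 groups of 7 values tested, the highest or lowest array lay apart from the other 6 by Dixon's criterion for 7 values, which chance alone meets in about 1 of 20 groups. The genes were partly chosen for their differences and many moved together, so that rate is no yardstick for the 43. Uninephrectomized array 2 was the array apart in 30 of them. It lay above the other 6 at 9.84 for Acmsd, 7.52 for Bmal1, 7.13 for C2h3orf80, 9.37 for Ddit4l, 9.9 for Eci2, 6.99 for LOC100912188, 7.31 for Nfil3, 7.74 for Npas2, 7.08 for Rnf125, 8.06 for Rsad2, 9.73 for Slc16a1, 6.43 for Slc51a, 9.12 for Slc8a1 and 9.53 for Wsb1. It lay below them at 7.56 for Ccl21, 4.99 for Cd3g, 7.33 for Csf1r, 6.58 for Dbp, 9.52 for Herpud1, 8.3 for Hlf, 10.82 for Nat8, 7.59 for Nr1d2, 8.6 for Per2, 5.31 for Per3, 7.15 for RT1-DMa, 8.62 for RT1-DMb, 6.97 for Tef, 6.99 for Usp2 and 9.09 for Vim. Its clock score of 0.661 met the criterion as well. Other arrays apart were sham array 4 for Cd68 at 7.19, uninephrectomized array 6 for Clu at 10.47, sham array 6 for Ddit4 at 6.95, sham array 4 for Klf6 at 8.23, uninephrectomized array 6 for Lcn2 at 4.24, sham array 3 for Mmp9 at 6.45, sham array 2 for Olr1 at 3.04, sham array 2 for PCOLCE2 at 7.04, uninephrectomized array 6 for Ptpro at 7.38, sham array 2 for Slc22a6 at 10.62, sham array 6 for Tk1 at 6.31, uninephrectomized array 3 for Tnfrsf12a at 7.79 and uninephrectomized array 7 for Umod at 13.18. The cause was not tested for any of these.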

How the results depend on the processing

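All counts here are of limma calls. The 2558 probe sets called in SBH/y became 79 with the clock score as a covariate, and 60 with the score and without uninephrectomized array 2. They were 1925 to 3145 with 1 array left out and 2108 to 3479 under the other alternatives, the replicate block giving 3479. The 439 interaction calls became 0 with the score, 3 with the score and without array 2, 899 with array weights and 977 without SBH/y array 2 and SBN/y array 6 of the uninephrectomized groups. They were 306 to 870 with 1 array left out, the 870 being without array 2. The 144 SBN/y calls became 60 with only the 14 SBN/y arrays and 225 with array weights, and were 62 to 154 with 1 array left out. The 280 called list genes became 20 with the score, and 282 to 330 under the other alternatives, the 330 without array 2. The clock score difference of -1.315 lay at -1.552 to -1.241 with 1 array left out. The score fit had larger standard errors, as given above, and beyond that the cause was not tested.

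The replicate numbers were not used as pairs, since nothing in the labels ties same-numbered samples and not all of their deviations correlated above 0.1. They correlated at -0.083 to 0.586 in SBH/y and at -0.068 to 0.26 in SBN/y, above 0.1 for 9 of 14 numbers and for 8 of 14 above the sham array's correlation with any other number, a hint of pairing from the data and not from the design. With the replicate block the interaction calls were 727 and the SBN/y calls 244.

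Among the 170 genes named, 43 kept direction and side of the threshold with the clock score, 122 lost their call and 5 changed sign: Dbp at -0.064, Nfil3 at 0.404, Nr1d2 at -0.136, Per3 at -0.256 and Rnf125 at 0.132. With the score and without array 2, the sign changed for Bhlhe40 at -0.044, Bhlhe41 at -0.368, Cdk1 at -0.127, Dbp at -0.55, Gadd45a at 0.034, Hlf at -0.332, Nfil3 at 0.445 and Per3 at -0.287. Of the genes that changed sign, Dbp, Hlf, Nr1d2 and Per3 are themselves part of the score, so that a large change was built in for them. No named gene changed sign under the other alternatives. Of 98 other probe sets of called named genes, 40 were called in the same direction and 58 were not called. The fits that left out array 2 together with SBN/y array 6 or with the score, and the list counts without array 2 or renormalized, were chosen after seeing the data. Signal over background was not measured, so differences of dim genes are limited to the deposited values.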
